A study of Mus musculus with 6 samples.

Results

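The 10 genes described here carry out antigen presentation by major histocompatibility complex (MHC) class I molecules: the peptide-loading genes Tapbp, Tap1 and Tap2, the class I chains B2m, H2-K1 and H2-D1, the immunoproteasome subunits Psmb8, Psmb9 and Psmb10, and the regulator Nlrc5. They were taken by symbol from a table of 15528 gene symbols, and all 10 were listed. The data are stranded mRNA libraries from mouse lymphatic endothelial cells (the label given) in culture, 3 exposed to red blood cells (RBC) and 3 controls, all taken at 24 h; genotype, strain, age and passage are not given in the labels, and the labels do not say whether replicates came from separate cultures, so each p-value rests on library-to-library spread, part of which may be technical. The comparison asks how transcripts of these cells differ when red blood cells are present, in a study of bleeding beneath the arachnoid membrane of the brain.

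Class I molecules show peptides from inside the cell to CD8+ T cells. The proteasome cuts proteins into peptides, the transporter made of Tap1 and Tap2 pumps them into the endoplasmic reticulum, and tapasin (Tapbp) holds the empty class I molecule, a heavy chain such as H2-K1 or H2-D1 paired with B2m, next to the transporter until a peptide fits. Under interferon gamma the inducible subunits Psmb8, Psmb9 and Psmb10 replace the constitutive subunits Psmb5, Psmb6 and Psmb7 and change which peptides are cut, while Nlrc5 acts at class I promoters. Lymphatic endothelial cells of lymph nodes are known to present antigens on class I molecules to T cells.

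Many class I promoters hold a binding site for NF-kB, called enhancer A, beside a site for interferon regulatory factors (IRF). The sequences upstream of 5 members, those of loading and of the class I chains that had one in the table, are shown so that these sites can be read in them. Each line gives the 250 bases before the RefSeq start site, 5′ to 3′ on the gene's strand (build GRCm38.p6, while the submitters' processing notes name GRCm39). Capitals mark matches, on either strand, to the NF-kB consensus, the IRF site GAANNGAAA, the interferon-gamma-activated site TTCNNNGAA and the CCAAT box. The windows lie at chr17:33919228-33919477 (plus strand) for Tapbp, chr17:34000348-34000597 (minus) for H2-K1, chr17:35262844-35263093 (plus) for H2-D1, chr2:122147437-122147686 (plus) for B2m and chr17:34187306-34187555 (plus) for Tap1.
Tapbp: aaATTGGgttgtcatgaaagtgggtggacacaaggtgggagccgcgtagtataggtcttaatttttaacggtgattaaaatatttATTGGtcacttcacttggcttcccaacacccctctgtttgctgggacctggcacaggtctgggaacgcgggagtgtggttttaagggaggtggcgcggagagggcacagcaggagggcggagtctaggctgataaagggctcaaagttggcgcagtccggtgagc
H2-K1: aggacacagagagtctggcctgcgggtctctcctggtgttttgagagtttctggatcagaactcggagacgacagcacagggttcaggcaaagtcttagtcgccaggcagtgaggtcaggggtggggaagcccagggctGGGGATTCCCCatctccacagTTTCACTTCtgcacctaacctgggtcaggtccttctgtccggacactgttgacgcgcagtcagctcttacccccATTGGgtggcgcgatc
H2-D1: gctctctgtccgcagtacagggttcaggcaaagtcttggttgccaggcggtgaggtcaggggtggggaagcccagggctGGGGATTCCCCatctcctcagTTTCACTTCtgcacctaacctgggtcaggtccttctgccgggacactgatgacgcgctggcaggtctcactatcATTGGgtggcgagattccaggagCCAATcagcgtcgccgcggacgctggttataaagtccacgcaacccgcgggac
B2m: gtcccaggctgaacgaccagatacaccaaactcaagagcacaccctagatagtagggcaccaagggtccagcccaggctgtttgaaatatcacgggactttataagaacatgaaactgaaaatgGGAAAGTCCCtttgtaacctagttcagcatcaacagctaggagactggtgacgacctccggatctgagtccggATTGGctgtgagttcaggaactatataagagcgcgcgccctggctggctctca
Tap1: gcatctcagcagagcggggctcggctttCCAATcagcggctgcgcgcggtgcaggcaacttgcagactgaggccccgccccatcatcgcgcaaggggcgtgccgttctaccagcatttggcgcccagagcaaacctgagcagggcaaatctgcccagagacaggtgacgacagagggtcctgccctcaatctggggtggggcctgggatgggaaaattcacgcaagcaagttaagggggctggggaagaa

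The H2-K1 and H2-D1 windows carry the same arrangement, NF-kB consensus matches in the run GGGGATTCCCC and an IRF match 10 bases downstream of it. The NF-kB matches span bases -111 to -101 of H2-K1, counted from its first listed start site, and -171 to -161 of H2-D1. B2m has an NF-kB match and no match to GAANNGAAA. Just upstream of that NF-kB match its window reads GAAACTGAAA. The pattern does not take this run, because an A stands where the pattern asks for its first G. Other forms of an IRF site were not searched, so B2m is not shown to lack one, and the IRF counts below rest on GAANNGAAA alone. The Tapbp and Tap1 windows have CCAAT matches only. Of the 32851 windows in the promoter table, which can hold several for a gene, 7.25% had an NF-kB match, 6.31% an IRF match, 7.02% an interferon-gamma-activated site and 33.8% a CCAAT box, and 0.381% had both of the first 2. The windows of 8 members were in the table, 3 of them with an NF-kB match, 2 of those also with an IRF match, and 6 with a CCAAT box. Psmb8 had an interferon-gamma-activated match, and Psmb10 had none of these matches. Tap1 and Psmb9 are transcribed away from each other, and their windows share 225 bases. A match describes letters in the window and is not shown to be a bound site.

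The libraries held 17263359 to 18381419 counts. Control replicate 2 stood apart: the chi-square per gene was 25.7 and 27.1 against the other controls, 1.96 between those others and 1.70 to 2.08 among the RBC libraries. It held more of short transcripts and less of long ones. Relative to the mean of control replicates 1 and 3, the median gene was 0.23 higher on the log2(CPM + 1) scale in the shortest of 5 equal length groups of tested genes and had a difference of -0.26 in the longest, where CPM is the counts scaled to the library total. Of the lymphatic endothelial markers, Prox1 and Lyve1 are not among the listed symbols and Pdpn had 2 counts over the RBC libraries and 6 over the controls, whereas Nr2f2 had 146 ± 3.46 CPM in RBC libraries and 161 ± 1.38 CPM in controls (SD, n = 3 each). The endothelial markers Kdr and Cdh5 had 1 and 11 counts over the RBC libraries and 0 and 7 over the controls. The other listed markers were detected: over the RBC libraries Nrp2 had 19598 counts, Flt4 191, Eng 5377 and Pecam1 747, and over the controls Nrp2 had 14498, Flt4 193, Eng 5303 and Pecam1 802, while Tek had 3 in each group. The cell type is given as labelled. Summed over 5 erythroid markers, RBC libraries had 9679 to 11421 counts and controls 49 to 65.

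With red blood cells, Tapbp was the single member that rose past the threshold over all genes. Of the 10 members 7 had enough counts to be tested and 1 was called, at an adjusted p under 0.05 in edgeR's quasi-likelihood test; over all 11208 tested genes 1.46% were called, and 1.16% were called higher. An unadjusted p under 0.05 was reached by 3 of the 7, Tapbp, H2-K1 and H2-D1, and by 9.99% of all tested genes. All 7 tested members had positive log2 fold changes, with a median of 0.14, where 49% of all tested genes were positive. In 4 of the 7, Tapbp, Tap2, H2-K1 and H2-D1, every RBC library lay above every control; 10.4% of all tested genes did so. Psmb8, Psmb9 and Nlrc5 were too low to be tested in that fit. In bulk RNA a change in the share of cells that express a gene and a change in RNA per cell cannot be told apart.

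**Figure D1:**
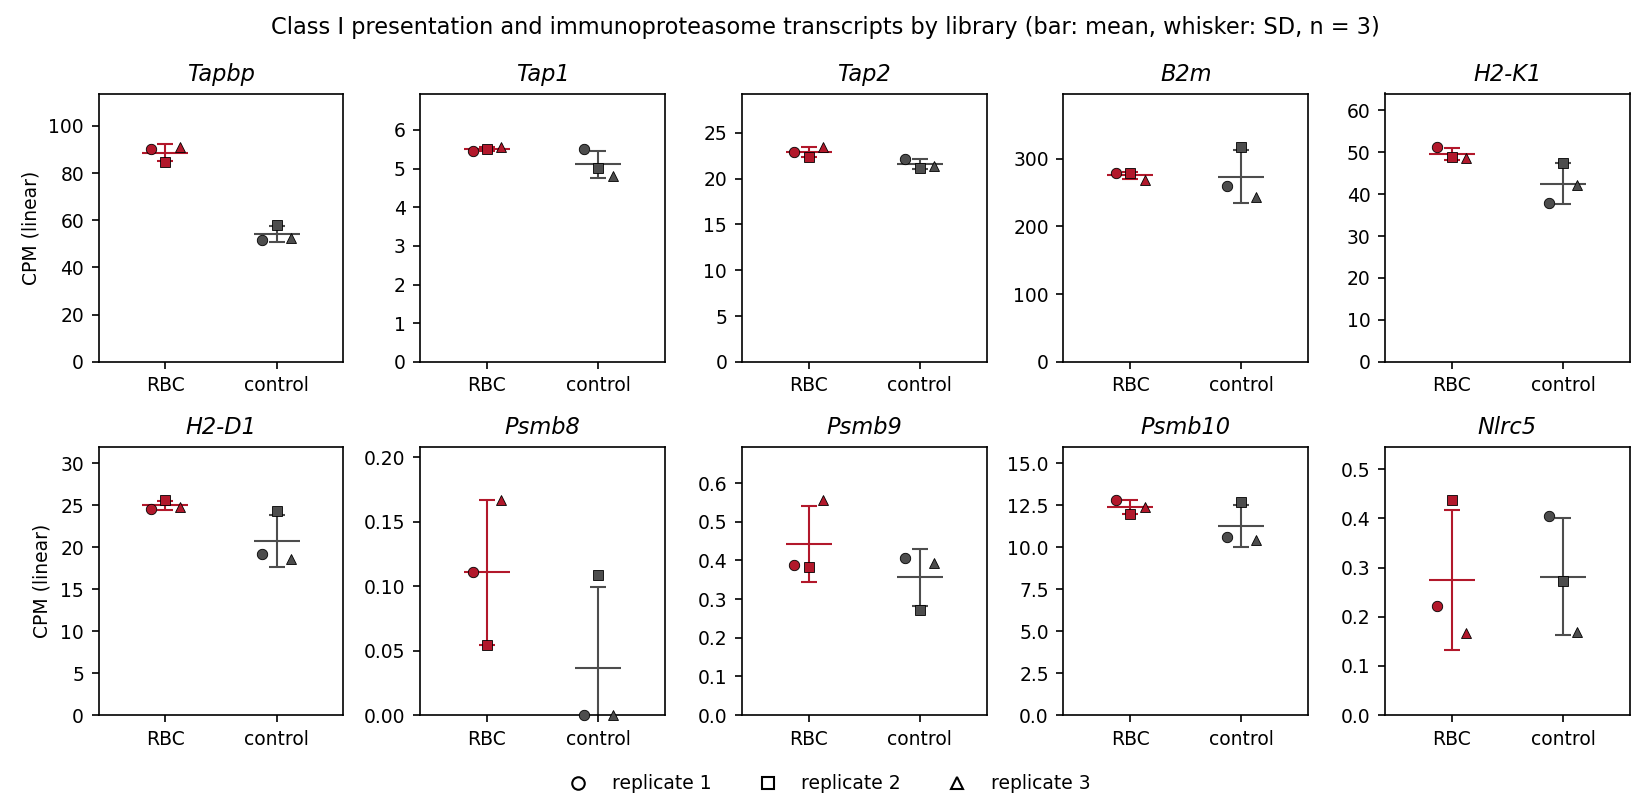
CPM of the 10 genes in each library (y axes linear from 0), RBC libraries at the left and controls at the right of each panel, with the mean and SD of 3 libraries; symbols give the replicate number. Tapbp stands at 84.6 to 91.0 CPM in RBC libraries and at 51.6 to 58.0 CPM in controls. Control replicate 2 is the highest control for Tapbp, B2m, H2-K1, H2-D1, Psmb8 and Psmb10.

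Of the 3 loading members, Tapbp, Tap1 and Tap2, edgeR called Tapbp. Tapbp, the tapasin bridge, had 90.3, 84.6 and 91.0 CPM in RBC replicates 1 to 3, against 51.6, 58.0 and 52.7 CPM in control replicates 1 to 3. The groups did not overlap. The means were 88.6 ± 3.47 CPM with red blood cells and 54.1 ± 3.47 CPM in controls (SD, n = 3 each), a 1.64-fold difference (log2 fold change 0.71 ± 0.067 SE, edgeR adjusted p = 0.00094). The call held with each library left out in turn, with log2 fold changes between 0.68 and 0.77 and edgeR adjusted p between 6.9e-20 and 0.014. The smallest came without control replicate 2, where the SE was 0.048, and is not comparable in size with the p-values of the other fits. In those fits 0.637%, 0.549% and 0.7% of all tested genes were called without RBC replicates 1 to 3, and 1.07%, 7.96% and 1.04% without control replicates 1 to 3. DESeq2 called Tapbp among 1.62% of its tested genes, and with the replicate number as a block edgeR called it among 1.12%.

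The transporter that tapasin contacts changed little. Tap2 had 22.9, 22.4 and 23.4 CPM in RBC replicates 1 to 3, against 22.2, 21.2 and 21.4 CPM in control replicates 1 to 3. The RBC values lay just above the controls, with a log2 fold change of 0.089 ± 0.065 SE (edgeR adjusted p = 0.66). Tap1 was lower in level, with 5.44, 5.51 and 5.55 CPM in RBC libraries, against 5.503, 5.01 and 4.82 CPM in controls. Control replicate 1 lay within the range of the RBC libraries, and the log2 fold change was 0.11 ± 0.11 SE (edgeR adjusted p = 0.75).

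Ratios within a library set the level of Tapbp beside that of its partners; they share the Tapbp values and are no further evidence of its rise. Per gene length (FPKM, fragments scaled to transcript length and library total), Tapbp was at 356%, 343% and 351% of Tap2 in RBC replicates 1 to 3, against 210%, 248% and 223% in control replicates 1 to 3. It was at 10.8%, 9.55% and 10.5% of the disulfide isomerase Pdia3, the enzyme that forms a stable pair with tapasin, in RBC libraries, against 6.11%, 5.81% and 6.32% in controls. Relative to Tapbpl, the tapasin-related chaperone, the mean log2 ratio was 3.93 in RBC libraries and 3.41 in controls. Of 11 within-library ratios computed, 8 have Tapbp on top: those to Pdia3 and Tapbpl, and those to Tap1, Tap2, B2m, H2-K1, H2-D1 and Psmb10, which were chosen after values were seen. The differences of the mean log2 ratio ran from 0.44 for H2-D1 to 0.76 for Pdia3. The ratios to Pdia3 and Tapbpl each had p = 0.10 in an exact two-sided permutation test, the smallest that 3 against 3 libraries can give (0.12 adjusted over the 11 ratios).

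None of the 3 class I chains was called with all libraries by DESeq2 or by edgeR without the gene length offset described below. The result depended on control replicate 2. In edgeR 2 of the chains, H2-K1 and H2-D1, had an unadjusted p under 0.05. The heavy chain H2-K1 had 51.2, 48.7 and 48.5 CPM in RBC replicates 1 to 3, against 37.9, 47.5 and 42.1 CPM in control replicates 1 to 3. The heavy chain H2-D1 had 24.6, 25.6 and 24.8 CPM in RBC libraries, against 19.2, 24.4 and 18.7 CPM in controls. In both genes the groups did not overlap, with control replicate 2 close to the RBC libraries. The log2 fold changes were 0.22 ± 0.084 SE for H2-K1 and 0.27 ± 0.10 SE for H2-D1 (edgeR adjusted p = 0.41 and 0.42).

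B2m, the light chain, was by far the most abundant member. It had 278, 278 and 269 CPM in RBC replicates 1 to 3, against 260, 317 and 244 CPM in control replicates 1 to 3. The controls spread on both sides of the RBC libraries, and the log2 fold change was 0.0094 ± 0.092 SE (edgeR adjusted p = 0.98). Without control replicate 2 all 3 chains were called higher, with log2 fold changes of 0.40 for H2-D1, 0.31 for H2-K1 and 0.13 for B2m (edgeR adjusted p = 5.3e-05, 5.5e-05 and 0.0089). In that fit, with 2 controls, the SE of B2m was 0.034. Its p-values are therefore not comparable in size with those from all libraries. Members called were then 4 of 7, with Tapbp, while 4.19% of all 11297 genes tested in that fit were called higher. With an offset that removes each library's trend with gene length, chosen after that replicate was seen to stand apart, H2-K1 and H2-D1 were called (log2 fold change 0.26 and 0.32, edgeR adjusted p = 0.040 and 0.036) and B2m was not (0.11, adjusted p = 0.26); with the offset 3.02% of all tested genes were called, 1.93% higher.

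**Figure D2:**
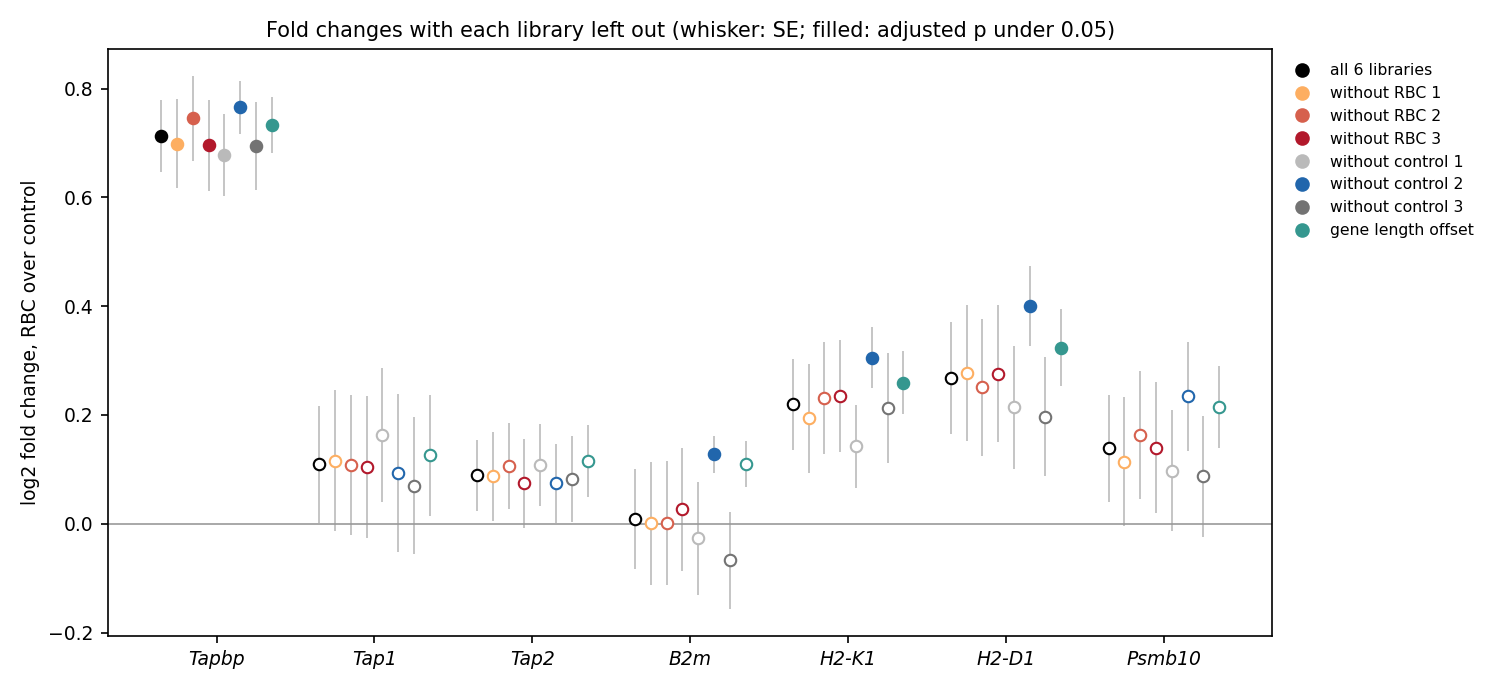
Log2 fold change of the 7 tested members, RBC over control, with all 6 libraries, with each library left out and with the gene length offset (whiskers: SE; filled symbols: adjusted p under 0.05). Tapbp is filled throughout at 0.68 to 0.77, while B2m, H2-K1 and H2-D1 are filled without control replicate 2 and, of these, H2-K1 and H2-D1 with the offset.

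Transcript length was measured beside these values. In control replicate 2 the short B2m (gene model of 858 bases) was 0.33 above the other controls on the log2(CPM + 1) scale, H2-D1 (1736 bases) 0.35 and Psmb10 (1270 bases) 0.25, where the median of their length group was 0.23. H2-K1 (2134 bases) was 0.24 above, Tapbp (2750 bases) 0.15 above, and Tap1 and Tap2 had differences of -0.035 and -0.039, where the median of their group was 0.096. The part of RNA quality in these values was not tested.

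**Figure D3:**
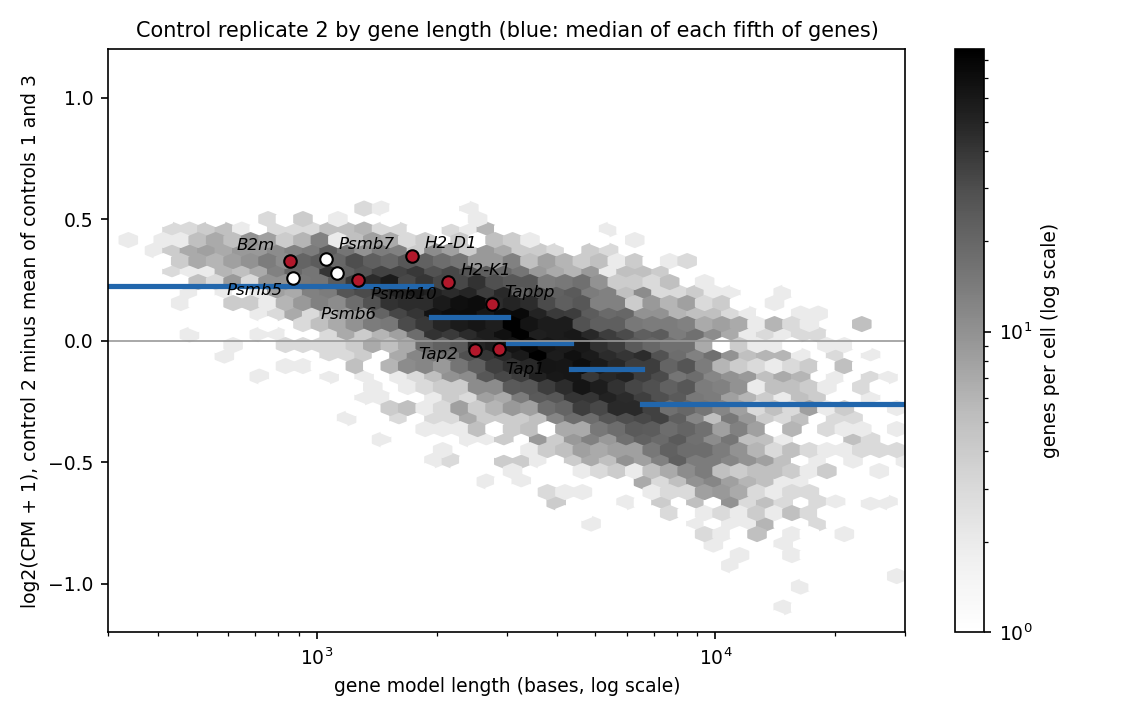
Difference of control replicate 2 from the mean of control replicates 1 and 3 (log2(CPM + 1), y axis) against gene model length (bases, log x axis) for tested genes within the plotted range (grey cells), the medians of 5 equal groups of genes by length (blue), the 7 tested members (red) and Psmb5, Psmb6 and Psmb7 (white). The medians are 0.23 in the shortest group and -0.26 in the longest, and B2m, H2-D1, H2-K1, Psmb10 and Tapbp lie above the median of their own group.

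Reads of the heavy chains can be shared. Of the 50-base stretches in annotated transcripts, 9.63% of those of H2-K1 and 12.8% of those of H2-D1 also occur in another gene, mostly other H2 genes, and the authors' handling of such reads is not given in the sources used here. Counted together, H2-K1 and H2-D1 had a log2 fold change of 0.24 ± 0.085 SE (edgeR adjusted p = 0.37), and all listed class I H2 genes together 0.18 ± 0.084 SE (adjusted p = 0.54). Among the nonclassical and class I-like genes 8 of the 16 listed were tested and none was called by edgeR (median log2 fold change -0.022; at an unadjusted p under 0.05 also 0, by DESeq2 0). H2-Q4 had 3.27 ± 0.38 CPM in RBC libraries and 2.65 ± 0.34 CPM in controls, and H2-T22 had 11.7 ± 0.97 CPM in RBC libraries and 12.0 ± 0.92 CPM in controls (SD, n = 3 each). That list holds H2-Ke6 by its name, a steroid dehydrogenase gene of the MHC region and no class I gene.

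Of the inducible subunits Psmb8 and Psmb9 were near 0 in both groups, and Psmb10 was expressed. Psmb8, the chymotrypsin-like inducible subunit, had 2, 1 and 3 counts in RBC replicates 1 to 3, against 0, 2 and 0 counts in control replicates 1 to 3, a ratio of 2.95 with an exact 95% interval of 0.53 to 29.9. Psmb9 had 7, 7 and 10 counts in RBC libraries, against 7, 5 and 7 counts in controls, a ratio of 1.24 (0.65 to 2.401). Both ratios lie within counting error (Clopper-Pearson, which covers counting error only), so no difference was detectable at this depth. Psmb10, the third inducible subunit, had 12.8, 11.9 and 12.4 CPM in RBC libraries, against 10.6, 12.7 and 10.4 CPM in controls. Control replicate 2 lay within the range of the RBC libraries, and the log2 fold change was 0.14 ± 0.099 SE (edgeR adjusted p = 0.66).

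Set against the constitutive subunits that they replace, the inducible subunits were a small share. Psmb8 was at 0.080 ± 0.036% of Psmb5 in RBC libraries and 0.023 ± 0.040% in controls, and Psmb9 was at 0.22 ± 0.048% of Psmb6 in RBC libraries and 0.17 ± 0.051% in controls (FPKM, SD, n = 3 each). Psmb10 was at 6.38%, 5.83% and 6.08% of Psmb7 in RBC replicates 1 to 3, against 5.30%, 5.01% and 5.22% in control replicates 1 to 3. For Psmb10 all RBC libraries exceeded all controls, with a difference of 0.23 in the mean log2 ratio (exact two-sided permutation p = 0.10, the smallest possible, 0.12 adjusted). The exact permutation p was 0.20 for Psmb8, tested on the percentage because 2 controls had 0 counts, and 0.40 for Psmb9, whose groups overlapped. The constitutive subunits themselves had log2 fold changes of -0.040, -0.11 and -0.099 for Psmb5, Psmb6 and Psmb7, none called by edgeR (at an unadjusted p under 0.05 also 0, by DESeq2 0); 54.1% of the 50-base stretches of Psmb5 also occur in another annotated gene, pseudogenes among them, so its level is less certain.

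**Figure D4:**
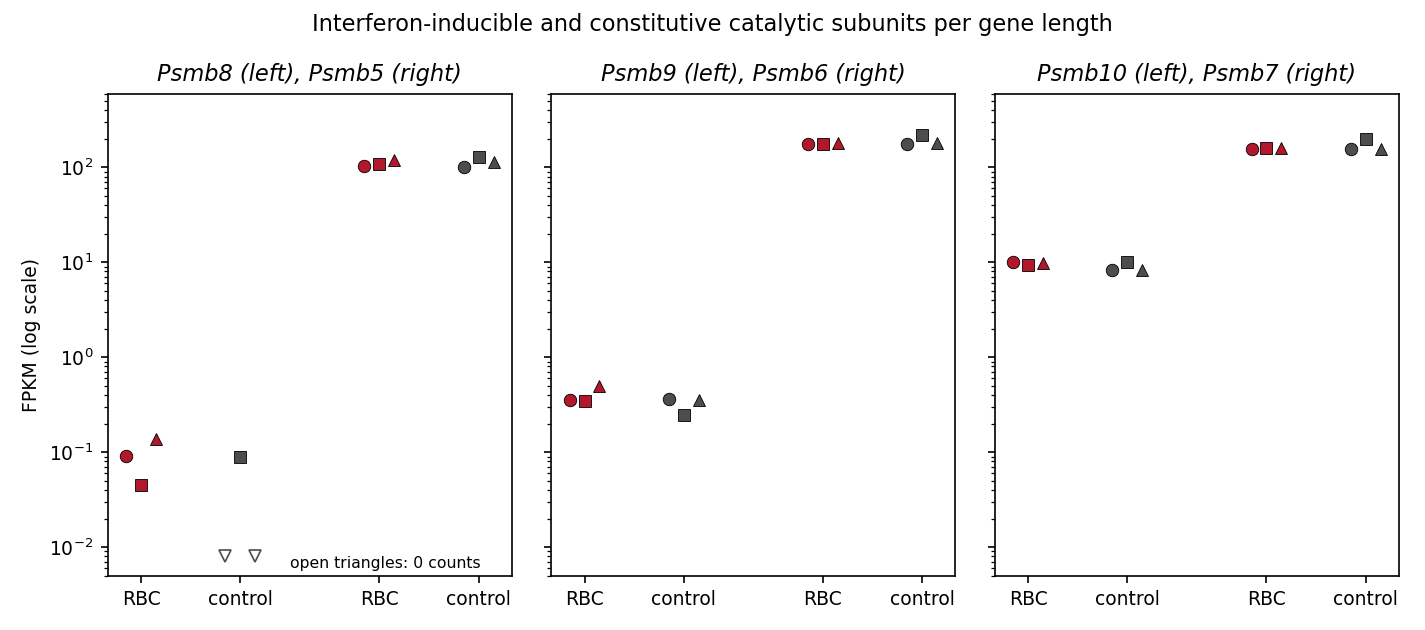
FPKM (log y axis) of the inducible subunits Psmb8, Psmb9 and Psmb10 (left pair of columns in each panel) and of the constitutive subunits Psmb5, Psmb6 and Psmb7 (right pair), with RBC libraries left of controls in each pair and 1 symbol per library; open triangles at the bottom are libraries with 0 counts. Psmb8 stays at or under 0.136 FPKM and Psmb9 at or under 0.5002 FPKM, while Psmb5, Psmb6 and Psmb7 are all above 100 FPKM.

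The other proteasome genes gave no call. Of the 10 tested activator and assembly genes none was called by edgeR (median log2 fold change 0.013), nor was any of the 11 other core subunits (median -0.12); at an unadjusted p under 0.05 there were 0 and 2 genes, and DESeq2 called 0 and 0. Psme1 and Psme2, which encode the interferon-inducible PA28 activator, had 60.7 ± 1.08 and 65.4 ± 1.80 CPM in RBC libraries, and 57.6 ± 9.30 and 59.1 ± 7.36 CPM in controls (SD, n = 3 each). Without control replicate 2, 3 activator and assembly genes were called higher, Psme2 among them with a log2 fold change of 0.25 (edgeR adjusted p = 0.00020), and 1 core subunit, Psma4, was called lower (-0.12, adjusted p = 0.0051). In that fit 7.96% of all tested genes were called, and 4.19% were called higher.

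Nlrc5, the class I transactivator, had 4, 8 and 3 counts in RBC replicates 1 to 3, against 7, 5 and 3 counts in control replicates 1 to 3. The groups overlapped fully, and the ratio was 0.98 (95% interval 0.45 to 2.16). Ciita, its class II counterpart, had 1 count over the RBC libraries and 0 over the controls.

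The order of the members by level was nearly the same in both groups. Per gene length in RBC libraries B2m came first with 321 ± 6.02 FPKM, followed by Tapbp (32.2 ± 1.26), H2-K1 (23.2 ± 0.69), H2-D1 (14.4 ± 0.30), Psmb10 (9.74 ± 0.33), Tap2 (9.20 ± 0.21), Tap1 (1.92 ± 0.019), Psmb9 (0.40 ± 0.088), Psmb8 (0.091 ± 0.046) and Nlrc5 (0.035 ± 0.018 FPKM; SD, n = 3 each). Psmb10 and Tap2 overlapped between libraries there, as did Psmb8 and Nlrc5. In controls H2-K1 with 19.9 ± 2.24 FPKM and Tapbp with 19.7 ± 1.26 FPKM overlapped, so the RBC libraries differ in that Tapbp stands clear of both heavy chains. Tap1 and Psmb9, which lie side by side with overlapping upstream windows, were at 1.92 ± 0.019 and 0.40 ± 0.088 FPKM in RBC libraries and at 1.78 ± 0.12 and 0.32 ± 0.066 FPKM in controls. In the order Psmb9, Tap1, Psmb8, Tap2 along chromosome 17, the 4 neighbouring protein-coding genes of the MHC (RefSeq, GRCm38.p6) thus alternate low and higher levels.

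Outside the members, 9 of the 101 tested genes in the lists of the pathway were called higher and none lower by edgeR, where 1.16% of all tested genes were called higher. The 9 include the class II gene Cd74. These lists were chosen with earlier results of these data known, so the count is no independent evidence about the pathway. In peptide loading and trimming 1 of 12 was called (median log2 fold change 0.015): Erap1, the endoplasmic reticulum aminopeptidase that trims peptides for class I, with 62.9, 62.1 and 60.2 CPM in RBC replicates 1 to 3, against 43.8, 44.1 and 49.7 CPM in control replicates 1 to 3. The groups did not overlap (log2 fold change 0.43 ± 0.067 SE, edgeR adjusted p = 0.015), but the call was lost without any one of the RBC libraries or without control replicate 1. Pdia3, calreticulin (Calr) and calnexin (Canx), the folding chaperones of the loading complex, had log2 fold changes of -0.048, 0.049 and 0.040 without a call.

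Of 20 tested transcription factors of class I and immunoproteasome promoters 3 were called higher by edgeR (median 0.047). DESeq2 called 5 genes of this list, where it called 1.62% of all its tested genes. Irf8, too low for the edgeR test, had 20 counts over the RBC libraries and 0 over the controls. Relb, a subunit of noncanonical NF-kB, had 34.2, 35.5 and 35.1 CPM in RBC libraries, against 16.9, 17.5 and 15.8 CPM in controls (log2 fold change 1.06 ± 0.067 SE, edgeR adjusted p = 6.2e-05). Its partner Nfkb2 had 94.7 ± 0.56 CPM in RBC libraries and 52.3 ± 4.04 CPM in controls (SD, n = 3 each; 0.86 ± 0.068 SE). The interferon-responsive factor Irf1 had 33.8 ± 1.53 CPM in RBC libraries and 26.7 ± 0.95 CPM in controls (0.34 ± 0.066 SE, edgeR adjusted p = 0.042), a call that was lost when any library but control replicate 2 was left out. Relb and Nfkb2 kept theirs with each library left out. The canonical subunits Nfkb1 and Rela had log2 fold changes of 0.30 and 0.16 without a call (edgeR adjusted p = 0.051 and 0.41). None of the 10 tested genes of interferon receptors, kinases and inhibitors was called by edgeR (median 0.11; at an unadjusted p under 0.05 there were 1, and DESeq2 called 0). Ifng and Ifnb1 are not among the listed symbols.

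Of 18 tested interferon-induced genes 3 were called higher (median 0.17): the chemokine Cxcl10 (2.89 ± 0.20 CPM in RBC libraries and 0.71 ± 0.18 CPM in controls), Ube2l6, the conjugating enzyme of the ubiquitin-like protein ISG15 (14.6 ± 0.33 CPM in RBC libraries and 9.504 ± 0.85 CPM in controls), and Parp14, an ADP-ribosyltransferase (1.62 ± 0.068 CPM in RBC libraries and 0.75 ± 0.047 CPM in controls; SD, n = 3 each). Cxcl10 kept its call with each library left out, Ube2l6 lost it without any one of the RBC libraries, and Parp14 lost it when any library but control replicate 2 was left out. The guanylate-binding proteins Gbp2 and Gbp3 had log2 fold changes of 0.40 ± 0.14 and 0.56 ± 0.20 SE without a call. DESeq2 also called 3 genes of the interferon-induced list. Rsad2, too low for the edgeR test, had 22 counts over the RBC libraries and 0 over the controls. Isg15 itself had 23, 39 and 39 counts in RBC replicates 1 to 3, against 30, 46 and 47 counts in control replicates 1 to 3. Of 6 tested ligands seen by T cells or phagocytes 1 was called: Cd47, the signal that inhibits engulfment, with 116 ± 3.53 CPM in RBC libraries and 86.5 ± 3.09 CPM in controls (0.43 ± 0.057 SE, edgeR adjusted p = 0.0066), lost without RBC replicate 2 or 3. Cd274, the inhibitory ligand PD-L1, had 44, 42 and 34 counts in RBC libraries, against 32, 34 and 41 counts in controls.

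**Figure D5:**
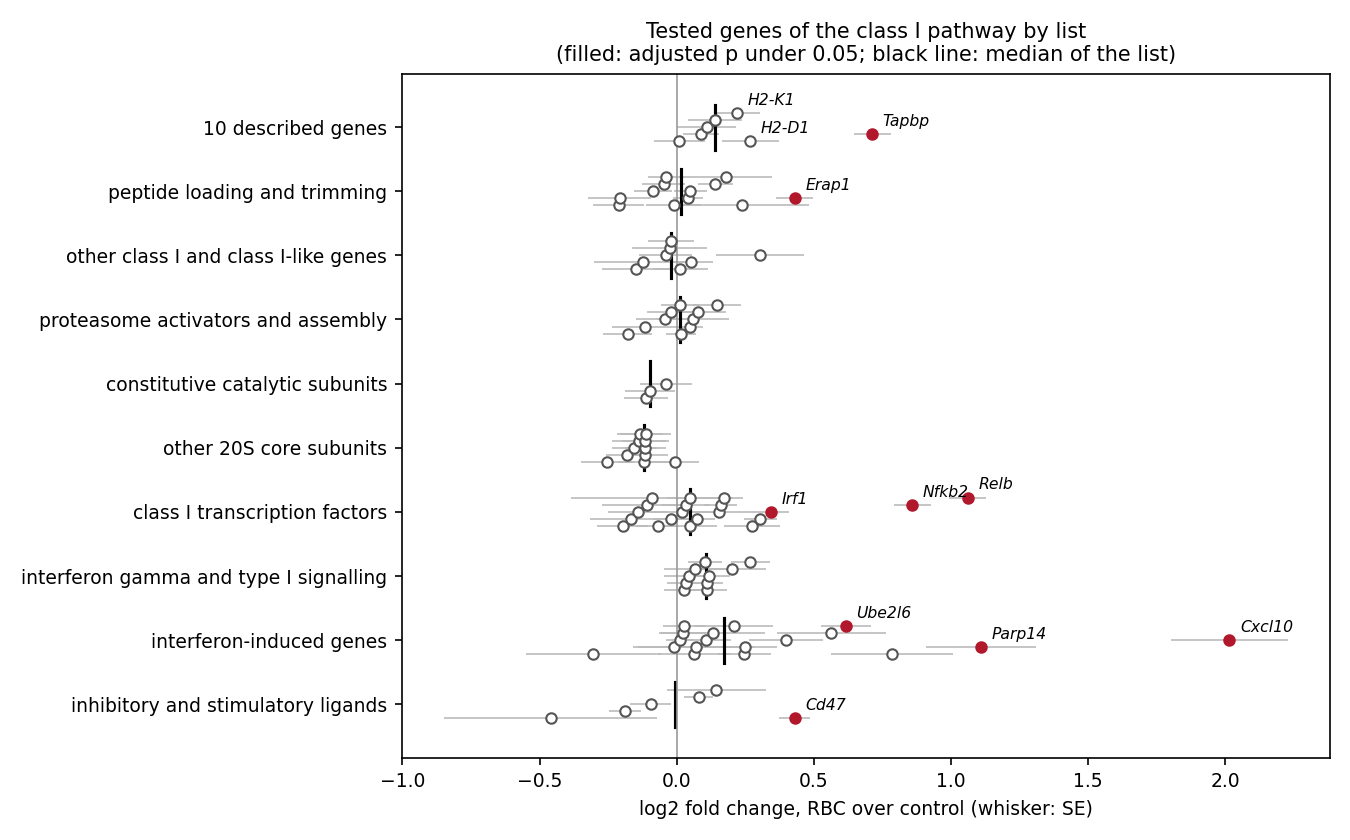
Log2 fold change, RBC over control, of every tested gene in the lists of the class I pathway other than class II genes (whiskers: SE; filled red: adjusted p under 0.05; black line: median of the list). Tapbp at 0.71 stands apart from the other members, which lie between 0.0094 and 0.27, and the filled points in the other lists include Relb at 1.06 and Nfkb2 at 0.86.

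The genes whose values over the 6 libraries lay nearest to those of Tapbp, by the root mean square distance of log2(CPM + 1) centred on each gene's mean and among tested genes of at least 10 CPM, were Junb, Pdgfrl, Tmem176a, Tnip1 and Cd82, with distances of 0.035, 0.063, 0.069, 0.071 and 0.077. Junb, an AP-1 transcription factor, had 46.8, 41.1 and 44.8 CPM in RBC replicates 1 to 3, against 26.3, 28.3 and 26.7 CPM in control replicates 1 to 3, and Tnip1, which encodes a binding partner of the NF-kB inhibitor A20, had 50.8, 46.5 and 50.6 CPM in RBC libraries, against 31.98, 35.04 and 32.004 CPM in controls. These genes were selected for likeness to Tapbp over the same libraries, so their separation of the groups follows from the choice.

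Of 3 tested class II genes 1, Cd74, was called higher by edgeR (median log2 fold change -0.0069), and of 3 tested leukocyte markers all 3 were. DESeq2 called 2 class II genes and 3 leukocyte markers, where it called 1.62% of all its tested genes. Cd74, the class II invariant chain, had 67 counts over the RBC libraries and 0 over the controls, at least 21.98-fold higher when the controls are set at the limit of 3 counts for the group, and the class II chains H2-Aa, H2-Ab1 and H2-Eb1 had 12, 15 and 13 counts over the RBC libraries and 1, 1 and 0 over the controls. Of the other class II genes, H2-DMa had 247 counts over the RBC libraries and 278 over the controls, H2-DMb2 had 24 over the RBC libraries and 25 over the controls, and Ifi30 had a log2 fold change of -0.0069. The 9 listed leukocyte markers of 10 summed to 94 to 148 counts in an RBC library and 27 to 32 in a control library, with Ptprc and Tyrobp at 0 in the controls. Tapbp had 1625, 1551 and 1638 counts in RBC replicates 1 to 3, against 890, 1067 and 940 counts in control replicates 1 to 3. The group means differed by 639 counts per library, and the sums were 4814 over the RBC libraries and 2897 over the controls. The erythroid markers summed to 9679 to 11421 counts in an RBC library and 49 to 65 in a control library. Psmb8 had 6 counts over the RBC libraries and 2 over the controls. For Psmb9 there were 24 over the RBC libraries and 19 over the controls, and for Ptprc 36 over the RBC libraries. The part of RNA from added blood cells in the Tapbp, heavy chain and Erap1 values was not tested. Nor was it tested for Irf8, Rsad2, Cd47, Ube2l6 or the other called genes.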

How the data were processed

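Per the labels' protocols, the mRNA libraries (TruSeq Stranded mRNA LT kit) came from TRIzol extracts of total RNA. The authors deposited whole-number read counts per gene and FPKM values for the same 6 libraries. The genome build was GRCm39, per the submitters' processing notes; for the annotation, strand setting, counter and aligner, the answer is: not given in the sources used here. Counts were tested in edgeR 4.0.16 (R 4.3.3; filterByExpr with a minimum count of 10, TMM scaling, quasi-likelihood test, Benjamini-Hochberg adjustment over all tested genes, threshold 0.05), with RBC libraries over controls. CPM is counts over the library's total. The deposited FPKM served for levels between genes and for ratios within a library, compared by exact two-sided permutation tests (Python 3.11.15, SciPy 1.17.1); the Psmb8 to Psmb5 ratio was planned on the log2 scale and is given as a percentage because libraries were at 0. Alternatives used DESeq2 1.42.0 and limma 3.58.1. Only the main edgeR fit was tried on simulated data, and these lacked the length trend of control replicate 2. Libraries held 17263359 to 18381419 counts; intervals and floors (3 counts) cover counting error only. The rule for named genes took the members, Psmb5, Psmb6 and Psmb7, and the 5 profiles nearest to Tapbp. From each other list it took the called genes and up to 4 more in order of p. Other genes of the lists (Calr, Canx, H2-T22, Psme1, Isg15, Irf8, Rsad2, Cd274, Ciita and single markers) were chosen after their values were seen. Pdia3 and Tapbpl were chosen for the ratios. The members and lists were chosen with earlier results of these data known. Shared 50-base stretches were counted in GENCODE M21 transcripts (GRCm38), and promoters came from RefSeq. A gene of the lists is not reported by name here.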

Additional observations from a re-analysis of the deposited data

How the results depend on the processing

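The Tapbp call held under every alternative fitted, with log2 fold changes of 0.68 to 0.77 when 1 library was left out. The number of genes called, 164 of 11208, ranged from 62 (without RBC replicate 2) to 899 (without control replicate 2) when 1 library was left out; it was 72 without RBC replicate 1, 79 without RBC replicate 3 and 339 with the gene length offset, which was chosen after seeing the data. Members called, 1 with all libraries, ranged from 1 to 4, with 4 without control replicate 2, and were 3 with the offset. Called pathway genes other than members, 9 with all libraries, ranged from 4 to 22: 5 without RBC replicate 1, 4 without RBC replicate 2 or 3, and 22 without control replicate 2. Members with a positive log2 fold change numbered 6 to 7 of 7. Over the fits with 1 library left out, B2m spanned -0.067 to 0.13, Psmb5 -0.12 to 0.049, Psmb7 -0.16 to 0.022, Hfe -0.25 to 0.00469 and Ifi30 -0.042 to 0.045. B2m turned to -0.027 without control replicate 1 and -0.067 without control replicate 3. Psmb5 turned to 0.0052 without RBC replicate 1, 0.049 without control replicate 2 and 0.058 with the offset, and Psmb7 to 0.022 without control replicate 2. Hfe turned to 0.00469 without control replicate 3, Psmg4 to 0.013 with the offset, and Ifi30 to 0.031 without RBC replicate 3, 0.045 without control replicate 2 and 0.080 with the offset. Other than by construction (fewer libraries), the cause was not tested. Of the log2 fold changes of single named genes under the alternatives, 766 kept direction and side of the threshold, 21 passed it, 22 fell short of it and 11 changed sign.

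The replicate numbers were not shown to pair the libraries: the deviations of same-numbered libraries correlated at -0.045, 0.032 and 0.070. With the replicate number as a block 126 genes, 1 member and 7 pathway genes were called, and Tapbp had a log2 fold change of 0.71 (edgeR adjusted p = 0.0036). At this depth Psmb8, Psmb9 and Nlrc5 did not pass the count filter of the main fit, and their counting intervals are wide. DESeq2 and edgeR without that filter tested these genes and called none of them.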
